A study of Mus musculus with 2 samples.

Results

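The genes described here are 5 products of Paneth cells other than the defensins, namely the lysozymes Lyz1 and Lyz2, the mucosal pentraxins Mptx1 and Mptx2, and the matrix metalloproteinase Mmp7. They were found by their gene symbols among the 27998 genes of the count matrices, where each symbol had 1 row, and all 5 had UMIs in both libraries. Single cells of the ileal epithelium were profiled by RNASeq in WT and TNFAIP8-/- mice (Tipe0-/- in the study), both on the C57BL/6 background and 8 weeks old. TNFAIP8-/- mice lack the gene of a cytosolic protein of the TIPE family, and how the deletion was made is not given in the sources used here. The cells of 3 mice were pooled for each genotype, so each genotype was 1 library and no test between the genotypes was possible. Every interval below is a 95% interval that covers counting error only and not the difference between mice. UMI counting gives each captured mRNA molecule 1 count at its 3′ end, so levels of different genes were compared without division by length, as counts per 1000000 UMIs (CPM) of the cells named.

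Paneth cells sit at the base of the small intestinal crypt between the stem cells and release granules of antimicrobial proteins into the crypt lumen. Lyz1 encodes the P lysozyme of these granules, an enzyme that cleaves the peptidoglycan of bacterial cell walls, and Lyz2 the closely related M lysozyme of macrophages and other myeloid cells. Mmp7, or matrilysin, cuts the precursors of the alpha-defensins into active peptides in mice. Mptx1 and Mptx2 belong to the pentraxins, a family of secreted pattern recognition proteins.

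The WT library held 3402 cells and 38127808 UMIs, and the TNFAIP8-/- library 2006 cells and 23897126 UMIs, with a median of 7760 and 7307.5 UMIs per cell. The targeted gene Tnfaip8 had 372 UMIs (9.76 CPM) in the WT library and 57 UMIs (2.39 CPM) in the TNFAIP8-/- library. The libraries shared 9 cell barcodes. Clustering gave 13 clusters, and a cluster was named "like" a cell type from marker genes that held none of the 5 genes. The labels call the cells enterocytes, but enterocyte-like clusters held 954 WT and 464 TNFAIP8-/- cells, and the remaining cells fell mostly into goblet-like, Paneth-like, stem-like, cycling-like, tuft-like and lymphocyte-like clusters. The 17 myeloid markers examined as another source of Lyz2 summed to 35.1 CPM in the WT and 28.9 CPM in the TNFAIP8-/- library. Most of these 1338 and 691 UMIs were of Cd14 (557 and 278) and Itgam (382 and 277), while Csf1r had 5 and 1.

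The lysozyme genes are neighbours on chromosome 10 of GRCm38 and lie on the minus strand, Lyz1 (ENSMUSG00000069515) from 117287797 to 117292868 and Lyz2 (ENSMUSG00000069516) from 117277331 to 117282321, with 5475 bases between them. Each has 4 exons, and their transcripts were identical in 92.0% of aligned bases, with a longest shared run of 118 bases. Over the last 300 bases, where 3′ reads fall, identity was 93.8% with a shared run of 104 bases. Mptx1 (ENSMUSG00000026531, plus strand, 174330518 to 174332873) and Mptx2 (ENSMUSG00000079180, minus strand, 173274382 to 173277777) are both on chromosome 1, have 2 exons each, and shared 91.9% of aligned transcript bases but only 86.9% of the last 300. Mmp7 (ENSMUSG00000018623) has 6 exons on the plus strand of chromosome 9, from 7692090 to 7699585. A read inside a shared run cannot be given to 1 gene of a pair, so the low counts of Lyz2 beside Lyz1, and of Mptx1 beside Mptx2 in Paneth-like cells, are uncertain.

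The bases before the gene starts are shown because they let the members of each pair be compared where their levels differed most. They are from RefSeq on GRCm38.p6, which held a window for 5 of 5 genes, and are read 5′ to 3′ on the strand of the gene. They cover chr10:117292869-117293118 for Lyz1, chr10:117282322-117282522 for Lyz2, chr1:174330268-174330517 for Mptx1, chr1:173277778-173278006 for Mptx2 and chr9:7691840-7692089 for Mmp7. The windows of Lyz2 and Mptx2 stop short where the GENCODE transcript begins before the RefSeq start. Capitals mark matches on either strand to the TATA box letters TATAAA or their variant TATAAG, to the AP-1 letters TGAGTCA, to the TCF letters CTTTGAT or their variant CTTTGAA, and to the ETS letters ACTTCCT.
Lyz1: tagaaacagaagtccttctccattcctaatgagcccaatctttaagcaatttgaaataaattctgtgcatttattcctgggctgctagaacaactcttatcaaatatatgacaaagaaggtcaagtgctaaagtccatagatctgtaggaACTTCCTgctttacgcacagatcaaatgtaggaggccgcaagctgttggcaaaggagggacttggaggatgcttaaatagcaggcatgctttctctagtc
Lyz2: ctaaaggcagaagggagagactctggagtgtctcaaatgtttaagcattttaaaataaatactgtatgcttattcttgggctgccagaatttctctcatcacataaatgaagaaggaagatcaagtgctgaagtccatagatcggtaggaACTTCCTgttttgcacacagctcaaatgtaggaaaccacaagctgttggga
Mptx1: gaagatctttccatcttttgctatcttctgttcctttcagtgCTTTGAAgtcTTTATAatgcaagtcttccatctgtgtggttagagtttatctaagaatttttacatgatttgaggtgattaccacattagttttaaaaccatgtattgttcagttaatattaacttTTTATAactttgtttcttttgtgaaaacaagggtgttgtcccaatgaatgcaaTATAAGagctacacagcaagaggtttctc
Mptx2: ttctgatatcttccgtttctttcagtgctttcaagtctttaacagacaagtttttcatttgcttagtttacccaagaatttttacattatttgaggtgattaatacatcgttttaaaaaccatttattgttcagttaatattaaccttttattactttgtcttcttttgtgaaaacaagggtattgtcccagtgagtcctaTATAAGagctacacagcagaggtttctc
Mmp7: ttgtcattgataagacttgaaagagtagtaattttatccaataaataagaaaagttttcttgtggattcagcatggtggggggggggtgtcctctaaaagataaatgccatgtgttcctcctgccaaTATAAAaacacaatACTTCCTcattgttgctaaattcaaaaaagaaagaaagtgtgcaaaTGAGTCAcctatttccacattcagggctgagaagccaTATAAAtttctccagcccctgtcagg

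Over 250 bases before the RefSeq starts, the Lyz1 and Lyz2 windows were identical in 79.4% of aligned bases and the Mptx windows in 72.4%. These include 49 bases of Lyz2 and 21 of Mptx2 that lie inside the GENCODE transcript and are not shown. Both lysozyme genes had ACTTCCT 100 bases before the RefSeq start, which for Lyz2 was 51 bases before the GENCODE start. Mmp7 had these letters 109 bases before its start. Those letters occurred in 7.69% of 32851 windows of 250 bases before RefSeq starts. Both Mptx genes had TATAAG, 29 bases before the GENCODE start of Mptx1 and 28 before that of Mptx2, letters that 6.65% of windows held. From the RefSeq starts the distances were 29 bases for Mptx1 and 49 for Mptx2. Mmp7 had TATAAA 26 and 123 bases before its start and TGAGTCA 63 bases before it, found in 12.4% and 4.46% of windows. In the Mptx1 window, TATAAA occurred on the other strand 82 and 198 bases before the start, and CTTTGAA, held by 4.46% of windows, 208 bases before it. CTTTGAT, which 3.21% of windows held, was in none of the 5 windows. A match describes letters only and is no evidence of binding.

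Across the whole libraries, Lyz1 was the most abundant of the genes, Mptx2 the second and Mmp7 the third. Lyz1 stood at 2455 CPM in the WT library and 3151 CPM in the TNFAIP8-/- library, a log2 ratio of TNFAIP8-/- over WT of 0.36 (0.35 to 0.37). Mptx2 stood at 759 and 489 CPM, a log2 ratio of -0.63 (-0.67 to -0.60), and Mmp7 at 277 and 222.5 CPM, a log2 ratio of -0.32 (-0.36 to -0.27). The lysozyme was thus higher and the pentraxin and the protease lower in the TNFAIP8-/- library.

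Mptx1 had 780 UMIs (20.5 CPM) in the WT and 152 UMIs (6.36 CPM) in the TNFAIP8-/- library, a log2 ratio of -1.68 (-1.95 to -1.43) and 3.21-fold higher in WT. Lyz2 was rare, with 94 UMIs (2.47 CPM) and 103 UMIs (4.31 CPM), a log2 ratio of 0.81 (0.39 to 1.22). The median log2 ratio over the 11665 genes whose UMIs in both libraries summed to 50 or more was 0.15, and ratios were read against it. A gene was counted as past the fold when it lay at least 1.5-fold from that median and its interval excluded the median, which held for 10.4% of the genes tested, 3.85% higher and 6.58% lower in the TNFAIP8-/- library. By this rule 3 of the 5 genes were past the fold, Lyz2 higher and Mptx1 and Mptx2 lower. Lyz1, at 0.21 above the median, and Mmp7, at 0.47 below it, were not.

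The cluster of Paneth-like cells, with Defa23 and Gm14851 among its leading genes and holding 14 Paneth markers, contained 283 of 3402 WT cells, or 8.32% (7.41 to 9.30%), and 139 of 2006 TNFAIP8-/- cells, or 6.93% (5.86 to 8.13%). TNFAIP8-/- minus WT came to -1.39 percentage points, and the interval of the difference, -2.84 to 0.115, included 0. Mptx2 was among the 10 leading genes of this cluster although it took no part in the clustering. Paneth-like cells were deeper than other cells, with a median of 20967 UMIs in the WT and 26111 UMIs in the TNFAIP8-/- library, against 6554 and 5697 in enterocyte-like cells. They held 17.6% of the UMIs of the WT library and 15.6% of those of the TNFAIP8-/- library.

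The genes differed in how much of their RNA these cells carried. Paneth-like cells held 96.4% of Lyz1 UMIs in both libraries, and 98.2% of Mptx2 UMIs in the WT and 98.6% in the TNFAIP8-/- library. For Mmp7 the share was 71.1% and 63.0%, and for Lyz2 59.6% and 80.6%. Mptx1 was mainly outside them, with 14.7% of its UMIs in Paneth-like cells of the WT and 34.9% of the TNFAIP8-/- library. Most of the TNFAIP8-/- part was in a single cell, described below, so the shares of the libraries are not comparable.

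**Figure D1:**
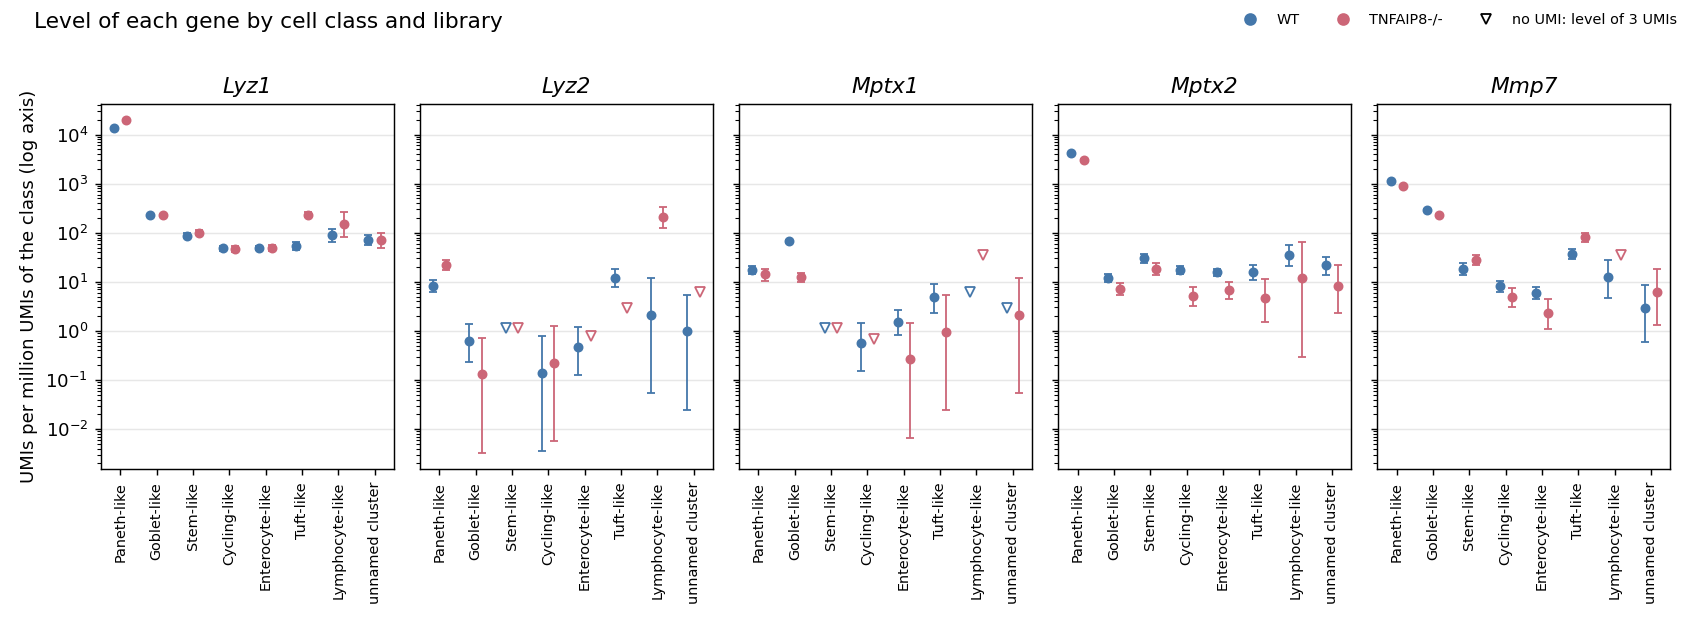
Level of each of the 5 genes in UMIs per 1000000 UMIs of the class (log axis), by cell class, in the WT and TNFAIP8-/- libraries, with exact 95% Poisson intervals, and open triangles at the level of 3 UMIs where a class had none. Lyz1 and Mptx2 stood far above every other class in Paneth-like cells, Mmp7 was second highest in goblet-like cells, and Mptx1 was highest in WT goblet-like cells at 66.6 CPM against 12.5 CPM in TNFAIP8-/- cells.

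Within Paneth-like cells, Lyz1 was more abundant in the TNFAIP8-/- library and Mptx2 and Mmp7 less abundant. Lyz1 stood at 13428 CPM (13340 to 13515) in WT and 19422 CPM (19281 to 19564) in TNFAIP8-/- cells, a log2 ratio of 0.53 (0.52 to 0.55). Every Paneth-like cell had a Lyz1 UMI, with a median of 238 UMIs per WT cell and 436 UMIs per TNFAIP8-/- cell. Mptx2 stood at 4226 CPM (4177 to 4276) and 3081 CPM (3025 to 3138), a log2 ratio of -0.46 (-0.49 to -0.42). Its median was 41 UMIs per WT cell and 38 UMIs per TNFAIP8-/- cell. Mmp7 stood at 1117 CPM (1092 to 1143) and 896 CPM (866 to 927), a log2 ratio of -0.32 (-0.38 to -0.26), with a median of 24 and 22 UMIs per cell.

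These levels were shares of a total in which the alpha-defensins weighed heavily. Alpha-defensin genes took 61.6% of the UMIs of WT and 51.2% of those of TNFAIP8-/- Paneth-like cells, or a mean of 14622 and 13755 UMIs per cell. The median log2 ratio over 7003 genes in these cells was 0.47, and 90.3% of the genes were above 0. Against that median Lyz1 was 0.059 higher, close to the middle of all genes. Mptx2 was 0.93 and Mmp7 0.79 below the median, both past the fold, as were 8.48% of the genes, 3.66% on the higher and 4.83% on the lower side. Over totals without the alpha-defensins and the 5 genes, the log2 ratios were 0.19 for Lyz1, -0.80 for Mptx2 and -0.67 for Mmp7. The direction of all 3 genes was kept, and the size of each ratio depended on the scale.

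Lyz2 and Mptx1 were scarce in Paneth-like cells. Lyz2 had 56 UMIs in WT cells (8.33 CPM, 6.30 to 10.8) and 83 UMIs in TNFAIP8-/- cells (22.2 CPM, 17.7 to 27.5), a log2 ratio of 1.41 (0.91 to 1.93), past the fold on the higher side with 3.66% of genes. No Paneth-like cell had more than 3 Lyz2 UMIs, and 49 WT and 59 TNFAIP8-/- cells had any. The number of Lyz2 UMIs for every 1000 Lyz1 UMIs was 0.621 (0.469 to 0.806) in WT and 1.14 (0.911 to 1.42) in TNFAIP8-/- cells. In the same cells the 17 myeloid markers summed to 63 UMIs in WT, with 8 markers at 0, and to 47 UMIs in TNFAIP8-/- cells, with 12 at 0. Most of these UMIs were of Cd14, with 34 in WT and 30 in TNFAIP8-/- cells. Itgam had 8 and 9, Fcer1g 8 and 2, Cd68 4 and 4, and Tyrobp 2 and 2. Csf1r had 1 and 0 UMIs there, and C1qa, C1qb, C1qc and Adgre1 were at 0 in both libraries. The part of misassigned Lyz1 reads in the Lyz2 counts was not tested.

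With each cell thinned to 3000 UMIs, a Lyz2 UMI was found in 8 of 283 WT cells (2.83%, 1.23 to 5.49%) and 8 of 139 TNFAIP8-/- cells (5.76%, 2.52 to 11.0%). The interval of that difference, -1.27 to 8.44 percentage points, included 0, so at equal depth a difference in the share of cells was not detectable. In enterocyte-like cells the share was 0.210% (0.0254 to 0.755%) in WT, and in TNFAIP8-/- cells it was 0 of 464 (exact upper bound 0.792%). There 3 counts would give a share of 0.647%.

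Mptx1 had 115 UMIs (17.1 CPM) in WT and 53 UMIs (14.2 CPM) in TNFAIP8-/- Paneth-like cells, a log2 ratio of -0.26 (-0.77 to 0.21). The interval included 0 but excluded the median of 0.47, so the gene was past the fold on the lower side. In the TNFAIP8-/- library 43 of the 53 UMIs were in 1 cell, and the largest value in a WT cell was 13 UMIs. Thinned to equal depth, the ratio was 0.26, from UMIs in only 11 WT and 4 TNFAIP8-/- cells. With cells weighted equally and not thinned it was -0.26.

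The ratio of the whole libraries was split for each gene into the share of cells that were Paneth-like, the UMIs per such cell relative to the mean cell, and the level within them. The log2 ratio of the cell share was -0.26 and that of UMIs per cell 0.09, and both are common to all genes. For Lyz1 the level within cells added 0.53, and the sum was 0.36, the same as the ratio of the whole libraries. For Mptx2 the level added -0.46 to a sum of -0.63, a larger term than the cell share. That order turned when the level was taken after thinning to 3000 UMIs (-0.23) or with cells weighted equally (-0.19). For Mmp7 the sum was -0.49 while the whole libraries gave -0.32, and 28.9% of WT and 37.0% of TNFAIP8-/- Mmp7 UMIs lay outside Paneth-like cells. The Mptx1 sum of -0.44 was far from the -1.69 of the libraries (-1.68 above, where 0.5 was added to each count). Its UMIs in other cells came to 17.4 CPM of the WT and 4.14 CPM of the TNFAIP8-/- library. The sum itself rests on few UMIs, as a single cell held most Mptx1 UMIs of the TNFAIP8-/- Paneth-like cells. The interval of the cell share given above applies to its term.

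**Figure D2:**
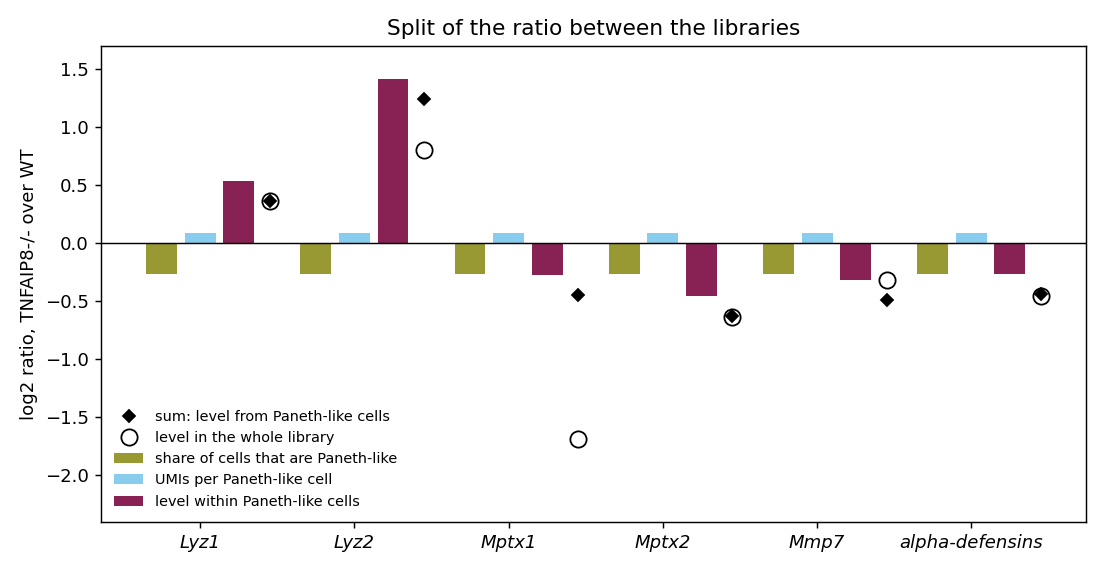
Log2 ratio of TNFAIP8-/- over WT (vertical axis) for each gene and for the summed alpha-defensins, split into the share of Paneth-like cells, UMIs per Paneth-like cell and level within them (bars), with their sum (diamonds) and the ratio of the whole libraries (circles). Diamond and circle coincide for Lyz1 and Mptx2 and lie apart for Mptx1, at -0.44 and -1.69. A single cell held most Mptx1 UMIs of the TNFAIP8-/- Paneth-like cells. No error is drawn because each genotype is 1 library.

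The genes also differed in how evenly Paneth-like cells carried them. Among cells with at least 10000 UMIs (223 WT and 118 TNFAIP8-/-), Lyz1 ranged from 333 to 39789 CPM in WT with a median of 11837, and from 478 to 59311 CPM with a median of 17194 in TNFAIP8-/- cells. Mmp7 ranged from 143 to 4438 CPM with a median of 991 in WT, and from 111 to 3122 CPM with a median of 828 in TNFAIP8-/- cells. Each gene varied by similar factors in the 2 libraries, and Lyz1 varied more widely than Mmp7. The 90th percentile was 6.42 times the 10th for Lyz1 in WT and 7.17 times in TNFAIP8-/- cells, and 4.27 and 4.06 times for Mmp7. The ranges of the libraries overlapped for both genes.

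Mptx2 was distributed differently, with a group of deep cells that showed none of it. In 25 of 223 WT cells (11.2%, 7.39 to 16.1%) and 17 of 118 TNFAIP8-/- cells (14.4%, 8.62 to 22.1%) no Mptx2 UMI was counted, and the 10th percentile was 0 in both libraries. The highest values were 20518 CPM in WT and 26649 CPM in TNFAIP8-/- cells, above medians of 3058 and 1829 CPM. The coefficient of variation was 1.04 for Mptx2 against 0.601 for Lyz1 in WT, and 1.35 against 0.616 in TNFAIP8-/- cells. The intervals of the shares without Mptx2 overlapped between the libraries.

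The deep cells without Mptx2 still carried the other products. Their median Lyz1 level was 9161 CPM in WT, against 11887 CPM in deep cells with Mptx2, and 12224 against 19958 CPM in TNFAIP8-/- cells. Their median Mmp7 level was 1182 against 960 CPM in WT and 838 against 824 CPM in TNFAIP8-/- cells. Alpha-defensins took a median of 46.1% of their UMIs against 63.1% in WT, and 36.8% against 54.2% in TNFAIP8-/- cells. They were shallower, with medians of 17964 against 25713 UMIs in WT and 23377 against 28966 UMIs in TNFAIP8-/- cells, and the part of depth in the missing UMIs was not tested. Counting the cells at 0, 36 of 223 WT and 25 of 118 TNFAIP8-/- deep cells had Mptx2 under 100 CPM.

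**Figure D3:**
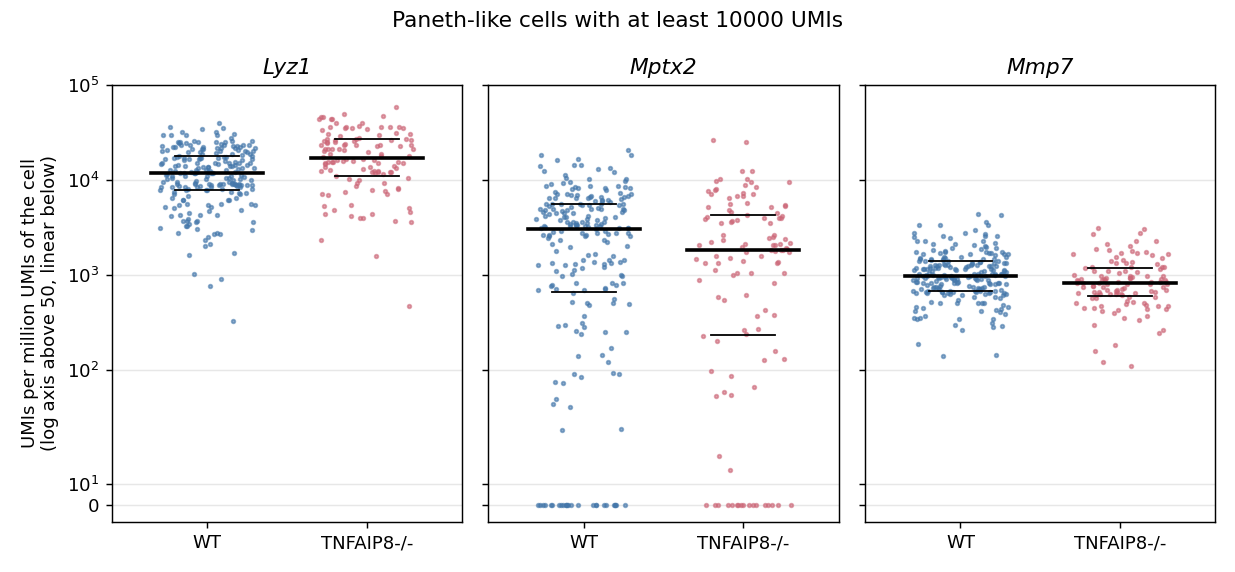
Lyz1, Mptx2 and Mmp7 in each Paneth-like cell with at least 10000 UMIs, in UMIs per 1000000 UMIs of the cell (log axis above 50 CPM, linear below), by library, with the median (thick line) and quartiles (thin lines). Mptx2 has a row of cells at 0, 25 in WT and 17 in TNFAIP8-/-, and a wide spread above it, while no deep cell was at 0 for Lyz1 or Mmp7.

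Over all Paneth-like cells thinned to 3000 UMIs, the levels of the 5 genes were weakly related to each other. Pearson's r between Lyz1 and Mptx2 was 0.16 over 283 WT cells and 0.31 over 139 TNFAIP8-/- cells, and that between Lyz1 and Mmp7 was 0.28 and 0.14. Between Mptx2 and Mmp7 it was -0.08 and 0.09. Lyz1 and Mptx2 were each more closely related to the summed alpha-defensins, with r of 0.42 and 0.54 for Lyz1 and 0.39 and 0.41 for Mptx2, whereas Mmp7 was not, with -0.01 and 0.08. These values describe cells of 1 library each that share a total, and sparse counts lower them.

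**Figure D4:**
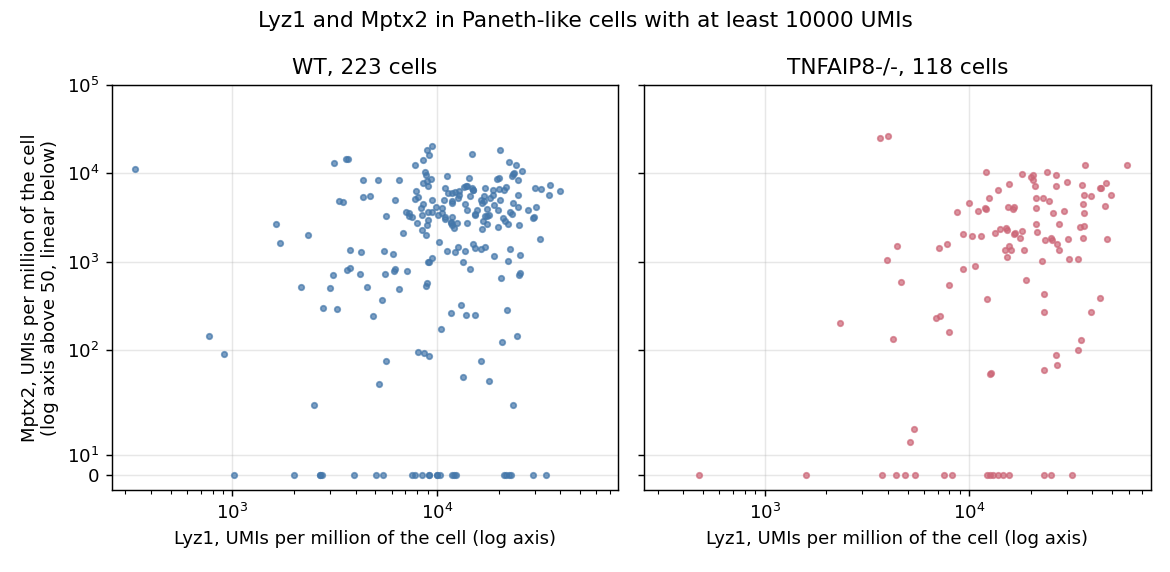
Lyz1 (horizontal) against Mptx2 (vertical) in single Paneth-like cells with at least 10000 UMIs, in UMIs per 1000000 UMIs of the cell, for 223 WT and 118 TNFAIP8-/- cells (log axes, the vertical one linear below 50). Cells without Mptx2 lie along the bottom over a broad range of Lyz1, and the highest Mptx2 values are not in the cells richest in Lyz1.

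By the genes nearest in the WT cells, Lyz1 went with Gm15308 (r of 0.49 in WT and 0.62 in TNFAIP8-/- cells), Defa20 (0.47 and 0.61), both alpha-defensin genes, and Itln1 (0.45 and 0.41), which encodes the lectin intelectin. Mptx2 went with Gm14851 (0.46 and 0.34) and Defa22 (0.46 and 0.40), both of the defensin family. Mmp7 went with Itln1 (0.37 and 0.26), Spink4 (0.36 and 0.39), a peptidase inhibitor of secretory cells, and Defa17 (0.34 and 0.40). They were taken from 829 genes for their values in WT, so only the TNFAIP8-/- values are from cells not used to choose them.

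Other genes were set beside the 5 genes by lists drawn from general knowledge of Paneth cells. Alpha-defensin genes with at least 50 UMIs in Paneth-like cells numbered 22. Of these, 11 were past the fold on the lower side and none on the higher. Among all genes tested in these cells, 4.83% were past it on the lower and 3.66% on the higher side. The median log2 ratio of the alpha-defensin genes was -0.11, against 0.47 over all genes. The most abundant alpha-defensin genes were Defa24 (-0.47), Defa20 (0.04), Gm15284 (-0.73) and Defa22 (-0.38). Of 16 other secretory products tested of a list of 20, 11 were past the fold on the lower side and none on the higher, with a median of -0.42. This list was not limited to Paneth cells, as it held Tff3, Zg16 and Spink4, also used as goblet markers to name clusters. In WT Paneth-like cells Reg3g, Reg3b, Lypd8, Tff3, Zg16 and Sct stood lower than in the whole WT library. The other products tested stood higher. Reg3g stood at 6433 against 21844 CPM and Reg3b at 2494 against 40346 CPM. The part of UMIs from other cells in their ratios was not tested. Spink4, at 19088 and 13164 CPM, had a log2 ratio of -0.54, Ang4, a ribonuclease of the granules, -1.05, and the lectin Reg3g -0.87, while Itln1 stood at 11470 and 10761 CPM (-0.09) and was not past the fold. Lyz1 at 0.53 lay above all 16 of these products, the highest of which, named after its value was seen, was the ribonuclease gene Rnase1 at 0.49 (0.23 to 0.75).

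Regulators of the lineage and ligands of the stem cell niche were counted in the same way. Of 20 regulators tested of 24, 6 were past the fold on the lower side, where 4.83% of all genes were, and none on the higher, with a median log2 ratio of 0.10. Except for Nupr1, the intervals of these 6 included 0 and lay below the median of 0.47 over all genes. Cd24a, a surface marker of these cells, had a log2 ratio of -0.05, the stress factor Nupr1 -0.51 and past the fold, Ctnnb1, or beta-catenin, 0.56, and Sox9, a transcription factor needed for Paneth cells, 0.72. Ctnnb1 and Sox9 were 0.09 and 0.24 above that median and not past the fold. Of 10 niche ligands 3 could be tested and none was past the fold, Wnt3 at 0.42, Dll4 at 0.52 and Dll1 at 0.61.

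Outside Paneth-like cells, Lyz1 and Mptx2 UMIs were found at a low level in every class. In enterocyte-like cells Lyz1 stood at 48.9 CPM in WT and 48.6 CPM in TNFAIP8-/- cells, and Mptx2 at 15.5 and 6.82 CPM. After thinning, 16.7% (14.4 to 19.2%) of WT and 15.9% (12.7 to 19.6%) of TNFAIP8-/- enterocyte-like cells had a Lyz1 UMI, and 6.08% (4.65 to 7.79%) and 3.02% (1.66 to 5.01%) an Mptx2 UMI, against 79.5% and 74.8% of Paneth-like cells for Mptx2. Relative to each other, Lyz1 and Mptx2 stood in a similar ratio in both classes of a library. There were 3.18 Lyz1 UMIs per Mptx2 UMI in WT Paneth-like and 3.15 in WT enterocyte-like cells, and 6.30 and 7.12 in TNFAIP8-/- cells. Goblet-like cells had another ratio, with 2158 Lyz1 and 117 Mptx2 UMIs in WT and 1781 and 56 in TNFAIP8-/- cells. In droplet data free RNA can give each class a low share of such UMIs, and its part in them was not tested. Subtracting the enterocyte-like level left the ratios within Paneth-like cells at 0.53 for Lyz1, -0.45 for Mptx2 and -0.31 for Mmp7. The amounts subtracted were small, 48.9 of 13428 CPM for Lyz1 in WT, so the ratios could hardly move and do not measure the part of free RNA.

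Measured against alpha-defensin UMIs, the classes separated the genes. Relative to Paneth-like cells, Lyz1 per defensin UMI was 0.84 (0.76 to 0.93) in WT and 0.96 (0.83 to 1.11) in TNFAIP8-/- enterocyte-like cells, the WT interval lying below 1, and Mptx2 per defensin UMI was 0.85 (0.71 to 1.01) and 0.85 (0.55 to 1.24). Mmp7 was at 1.25 (0.93 to 1.64) and 1.01 (0.46 to 1.92) there, but at 12.4 (11.9 to 12.9) in WT and 23.0 (22.0 to 24.1) in TNFAIP8-/- goblet-like cells. Mptx1 per defensin UMI was 184 (170 to 199) and 78.6 (63.6 to 95.9) times its value in Paneth-like cells. These intervals leave out the counting error of the Paneth-like reference. For Mptx1 that reference was 115 UMIs in WT and 53 UMIs in TNFAIP8-/- cells, most of the latter in a single cell. The Mptx1 values of the libraries are therefore not comparable with each other. Nor does the higher Mmp7 ratio in TNFAIP8-/- goblet-like cells mean a higher level. Mmp7 stood at 294 CPM in WT and 232 CPM in TNFAIP8-/- goblet-like cells. Defa24 there stood at 10627 and 4453 CPM. The Mmp7 and Mptx1 UMIs of goblet-like cells were thus far above what the defensin UMIs beside them carried in Paneth-like cells. Mptx2 was below, at 0.14 (0.11 to 0.16) and 0.21 (0.16 to 0.27), beside defensin UMIs that were mostly of Defa24, which made up 81.5% of them in WT and 77.5% in TNFAIP8-/- goblet-like cells but 28.7% and 24.9% in Paneth-like cells. Mmp7 per defensin UMI was above 1 in other classes too, at 6.60 and 19.1 in tuft-like cells. It was 2.53 (1.87 to 3.35) and 4.87 (3.82 to 6.12) in stem-like and 1.82 (1.38 to 2.34) and 1.93 (1.21 to 2.92) in cycling-like cells. For Mptx1 it was 55.9 in WT tuft-like and 20.8 in WT enterocyte-like cells, from 10 and 13 UMIs.

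**Figure D5:**
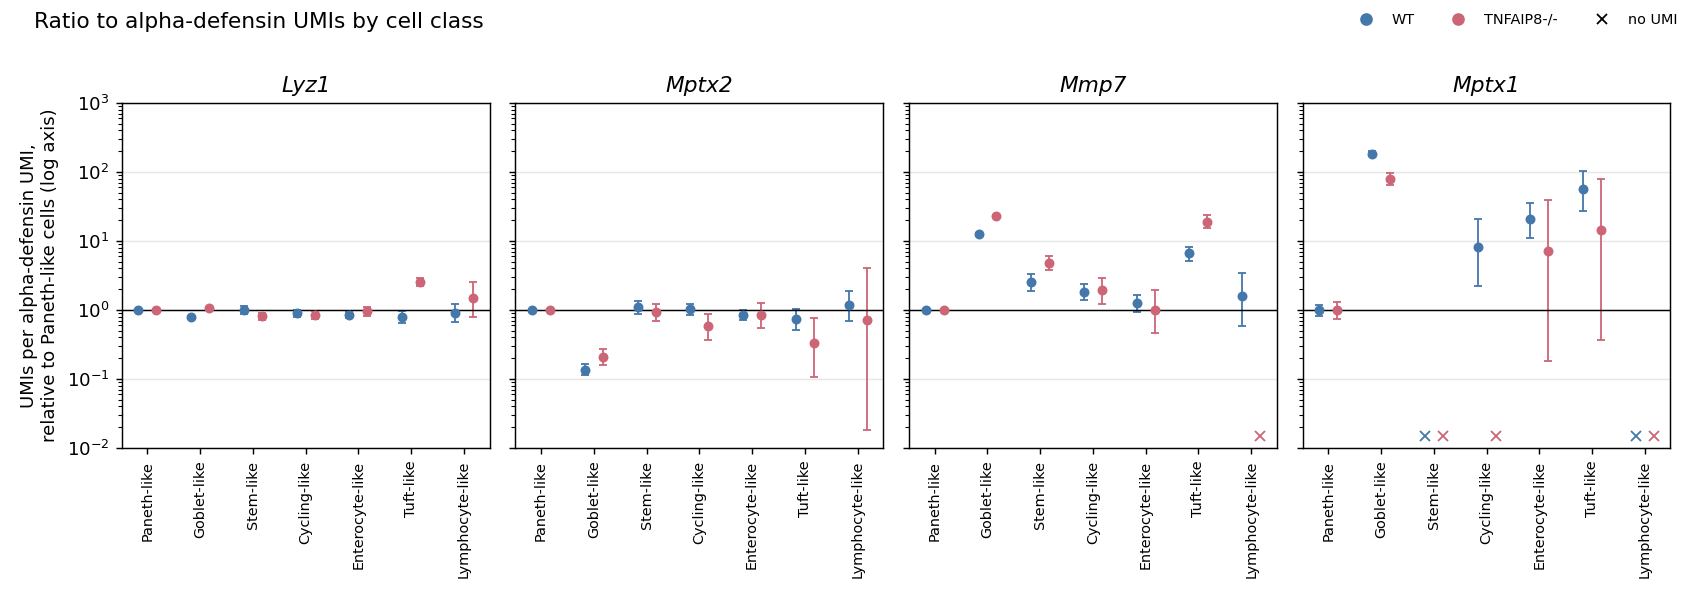
UMIs of Lyz1, Mptx2, Mmp7 and Mptx1 per alpha-defensin UMI, relative to the same ratio in Paneth-like cells of the library (log axis), by cell class, with exact 95% intervals of the gene's own count, and crosses where the gene had no UMI. Lyz1 and Mptx2 lie near 1 in enterocyte-like cells, and Mmp7 and Mptx1 lie above 10 in goblet-like cells of both libraries.

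Goblet cells make the mucus of the epithelium, and the goblet-like clusters were the second site of Mmp7 and the main site of Mptx1. Mmp7 stood at 294 CPM (283 to 305) in 746 WT and 232 CPM (221 to 243) in 516 TNFAIP8-/- goblet-like cells, a log2 ratio of -0.34 (-0.43 to -0.26), which was 0.44 below the median of 0.095 over 10045 genes and not past the fold, as 7.27% of those genes were (3.23% higher and 4.04% lower). After thinning, 41.4% (37.9 to 45.1%) and 36.4% (32.3 to 40.8%) of these cells had an Mmp7 UMI, against 2.10% (1.29 to 3.22%) and 0.862% (0.235 to 2.19%) of enterocyte-like cells. Median depths were 11156.5 and 11069.5 UMIs in goblet-like and 6554 and 5697 UMIs in enterocyte-like cells. Mmp7 was found in all 3 goblet-like clusters, at 277 and 225 CPM in the cluster led by Mt3, Id4 and Etv5, at 625 and 487 CPM in that led by Sval1, Ido1 and Zg16, and at 106 and 58.6 CPM in that led by Frmd3, Zg16 and Ido1. It was higher in WT in each of them. The first of these clusters had no goblet marker among its 10 leading genes, although Spdef and Creb3l1, regulators of secretory cells, were among them. With clusters from 2000 variable genes the goblet-like ratio of Mmp7 was 0.014.

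Mptx1 differed most between the libraries in goblet-like cells, with 638 UMIs (66.6 CPM, 61.6 to 72.0) in WT and 96 UMIs (12.5 CPM, 10.1 to 15.3) in TNFAIP8-/- cells. The log2 ratio was -2.41 (-2.74 to -2.10), or 5.30-fold higher in WT, and past the fold on the lower side. It was lower in TNFAIP8-/- cells in all 3 clusters. In the cluster led by Mt3, Id4 and Etv5 it stood at 28.1 and 12.0 CPM, a log2 ratio of -1.22 (-1.64 to -0.84). In that led by Sval1, Ido1 and Zg16 it stood at 266 and 18.6 CPM, a log2 ratio of -3.78 (-4.76 to -3.04), and in that led by Frmd3, Zg16 and Ido1 at 84.5 and 11.5 CPM (-2.81, -4.05 to -1.91).

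Alpha-defensins and some of the other secretory products listed were also lower in the TNFAIP8-/- goblet-like cells. The summed alpha-defensins stood at 13047 CPM in WT and 5745 CPM in TNFAIP8-/- cells, a log2 ratio of -1.18 (-1.20 to -1.17). Of 19 alpha-defensin genes tested 16 were past the fold on the lower side. Of 17 other secretory products 9 were past it on the lower side and 1 on the higher. The list of these products also held the goblet markers Tff3, Zg16 and Spink4. Of all genes tested in goblet-like cells, 4.04% were past the fold on the lower and 3.23% on the higher side. Ang4 was at 2130 and 159 CPM, a log2 ratio of -3.74. Without cells of 5% or more defensin UMIs, Mptx1 was still lower in TNFAIP8-/- cells (-2.00).

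Few cells carried most of the Mptx1. At least 1 UMI was counted in 99 of 746 WT cells (13.3%, 10.9 to 15.9%) and 31 of 516 TNFAIP8-/- goblet-like cells (6.01%, 4.12 to 8.42%), and at least 10 UMIs in 16 and 3 cells. The 10 richest cells held 60.0% of the UMIs in WT and 78.1% in TNFAIP8-/- cells, the richest having 97 and 23 UMIs. Without the 10 richest cells of each library the log2 ratio was -3.24. That step removed a larger part of the UMIs in TNFAIP8-/- than in WT cells, which by itself lowers the ratio. It therefore cannot show whether the difference rested on few rich cells. After thinning, 7.51% (5.72 to 9.64%) and 3.68% (2.23 to 5.69%) of the cells had an Mptx1 UMI, against 0.314% (0.0649 to 0.916%) and 0.216% (0.00546 to 1.19%) of enterocyte-like cells. Of the goblet-like cells with Mptx1, 70.7% in WT and 67.7% in TNFAIP8-/- cells also had Mmp7, close to the 65.5% and 64.1% of all goblet-like cells. Cells with at least 5% of UMIs from alpha-defensins were more common among WT goblet-like cells (72) than among TNFAIP8-/- ones (15), and without them the Mptx1 ratio was -2.00. The 3 mice of a library were not told apart, so a single animal with such cells cannot be told apart from a difference in all 3.

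Lyz1 in goblet-like cells stood at 225 CPM (216 to 235) in WT and 232 CPM (221 to 243) in TNFAIP8-/- cells, a log2 ratio of 0.04 (-0.05 to 0.13). Of the 2158 and 1781 UMIs, 1891 and 1621 were in the cluster led by Mt3, Id4 and Etv5. Relative to Paneth-like cells, Lyz1 per defensin UMI was 1.29 and 1.34 in that cluster. It was 0.19 and 0.38 in that led by Sval1, Ido1 and Zg16, and 0.29 and 0.27 in that led by Frmd3, Zg16 and Ido1. Over all goblet-like cells, the 10 richest held 39.3% and 61.6% of the Lyz1 UMIs, and without them the ratio was -0.61. In tuft-like cells, the chemosensory cells of the epithelium, Lyz1 stood at 53.9 CPM in WT and 234 CPM in TNFAIP8-/- cells. Of the 245 UMIs behind the latter value 180 were in 1 of 50 cells, so the difference rested on that cell. Mmp7 in tuft-like cells was at 37.4 and 80.4 CPM, from 77 and 84 UMIs, of which the 10 richest cells held 64.9% and 92.9%. In stem-like cells Lyz1 was at 87.5 and 100.4 CPM and Mmp7 at 18.4 and 28.0 CPM, and neither Lyz2 nor Mptx1 had a UMI in 318 WT and 265 TNFAIP8-/- cells.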

How the data were processed

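The authors made 10x Single Cell 3′ v2 libraries, used Cell Ranger to align them to mm10 and to count UMIs, and deposited for every retained cell the raw UMI counts of each gene, which are not normalized. The equalization of depth between libraries that their methods describe is not in these counts. Their methods name DNase I and Dispase for the digestion and the labels collagenase and dispase, and the difference was not resolved.

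Both matrices were used whole, 3402 WT and 2006 TNFAIP8-/- cells, with no filter on cells and no other column of samples. Cells were clustered together in Seurat 5.3.0 (R 4.3.3) after the methods of the study, by mean and dispersion, 14 principal components and resolution 0.8, on 528 of 582 variable genes, the 5 genes and those of the study's comparison of genotypes left out. A cluster was named from the highest mean marker z-score, with at least 3 markers in 10% or more of its cells and at 1.5 times the share of other cells. Of the 13 clusters 1 was left unnamed. Names were rebuilt here, so cells may be classed otherwise than in the study. Scrublet (scanpy 1.11.5) called 15 WT and 3 TNFAIP8-/- cells as doublets, a share too low to be a working call, so no cell was removed and leaving out the 5% highest scores was an alternative.

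UMIs were summed per class and library, with 0.5 added in log2 ratios. Intervals were Poisson for sums and Clopper-Pearson for shares and for ratios between the libraries, at 95%, and cover counting error only. For a difference of shares the Clopper-Pearson limits of both shares were combined, which is approximate. Ratios to alpha-defensin UMIs had the Poisson interval of the gene's own count in the class named. To compare how many cells had a UMI, every cell was thinned to 3000 UMIs, which lost no cell. For a share of 0 the limit that 3 counts would give is stated. No p-value was computed. The ratio step was tested on simulated Poisson sums with 200 changed genes. Of these, 100% in the whole libraries (11665 genes) and 99.5% in Paneth-like cells (7003 genes) came out in the right direction. Of the unchanged genes, 0.515% and 2.13% were past the fold. The simulated sums held no differences between cells or mice, so they check the step for counting error only. Gene positions are from GENCODE vM21 (GRCm38). Named are the 5 genes, for each the 3 genes nearest by Pearson's r of log2(CPM + 10) over clusters, within Paneth-like cells the 3 genes of highest r in WT cells for genes averaging at least 1 UMI per thinned cell, and the 4 most abundant of each list. One gene that this rule names is not reported here. The genes and lists were chosen with earlier results of these data known, the lists from general knowledge of Paneth cells. Python 3.11.15, numpy 2.4.6 and scipy 1.17.1 were used.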

Additional observations from a re-analysis of the deposited data

How the results depend on the processing

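No paired analysis was possible because each genotype had 1 library and the labels give no replicate numbers, and leaving out a library would leave no comparison. With pooled mice, library and genotype cannot be told apart. Values are log2 ratios of TNFAIP8-/- over WT unless named otherwise, and the cause of a shift was not tested. Of 114 ratios and shares under alternatives, 65 stayed within the counting interval of the reported value and 49 lay outside it. The sign changed in 5, of which 4 had a reported interval that included 0, namely Mptx1 in Paneth-like cells when thinned (0.26), its share of cells at 2 or more UMIs after thinning (0.013 points), the share of cells with Mmp7 without thinning (1.05 points) and Lyz1 in goblet-like cells without the 10 richest cells (-0.61). The other was Mmp7 in goblet-like cells with 2000 variable genes. The directions of Lyz1, Lyz2, Mptx2 and Mmp7 in the whole libraries and in Paneth-like cells were the same under all alternatives run. The share of Paneth-like cells was lower in the TNFAIP8-/- library in all 8, by 1.27 to 2.63 percentage points.

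In the whole libraries, totals without mitochondrial and the 20 most abundant genes gave 0.30 for Lyz1, -0.69 for Mptx2 and -0.37 for Mmp7, and scaling by the median ratio gave 0.21, -0.79 and -0.47. Without the 5% highest doublet scores Lyz1 was 0.38, Lyz2 1.28 and Mptx2 -0.59. Without the 10 richest cells Lyz1 was 0.28, Mptx1 -2.84 and Mptx2 -0.75. With the same makeup of clusters Lyz1 was 0.60, Lyz2 1.33, Mptx2 -0.39 and Mmp7 -0.23.

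Within Paneth-like cells, totals without alpha-defensins and the 5 genes gave 0.19 for Lyz1, -0.80 for Mptx2 and -0.67 for Mmp7. Thinning to 3000 UMIs gave 0.59 for Lyz1, 0.26 for Mptx1, -0.23 for Mptx2 and -0.22 for Mmp7. With cells weighted equally Lyz1 was 0.61, Mptx2 -0.19 and Mmp7 -0.25. In cells with 10% or more defensin UMIs Lyz1 was 0.58, Mptx1 -1.02 and Mptx2 -0.40. Lyz1 was 0.56 with 2000 variable genes, 0.56 with no defensin among the variable genes and 0.56 without the highest doublet scores, where Mptx2 was -0.41. Scaling by the median ratio, chosen after seeing the data, gave 0.059, -0.93 and -0.79 for Lyz1, Mptx2 and Mmp7. With no filter on low counts 902 instead of 594 genes were past the fold, and 1620 instead of 1217 in the whole libraries. Without thinning, the share of cells with a UMI differed by 25.1 percentage points for Lyz2 and by -6.94 for Mptx1.

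The alternatives for goblet-like cells were all chosen after seeing the data. Without the 10 richest cells Mptx1 was -3.24, Mmp7 -0.44 and Lyz1 -0.61, and with cells weighted equally they were -2.90, -0.24 and 0.26. With 2000 variable genes they were -3.39, 0.014 and 0.52. Without cells of 5% or more defensin UMIs Mptx1 was -2.00, and without the highest doublet scores Lyz1 was 0.14.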

Other observations

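Over the 13 clusters of both libraries (26 points, Pearson's r of log2(CPM + 10), points of a cluster sharing cell type and points of a library sharing depth), each gene had other nearest genes. Mptx2 was nearest to the defensin genes Defa22, Gm15308 and Defa20, at 0.99 each. Lyz1 was nearest to Habp2 (0.97), which encodes a secreted protease, Gm7861 (0.96), of the defensin list, and Samd5 (0.95). Mmp7 was nearest to Reg4 (0.96), a lectin of secretory cells, Pla2g2f (0.95), a secreted phospholipase, and Itln1 (0.95), all found in Paneth-like and goblet-like cells. Mptx1 was nearest to Retnlb (0.93), which encodes a goblet cell protein, Chrm3 (0.93), a muscarinic receptor, and Bhmt2 (0.89). Retnlb stood at 378 CPM in WT and 66.9 CPM in TNFAIP8-/- Paneth-like cells, a log2 ratio of -2.50 (-2.69 to -2.31), beside -0.26 for Mptx1 there, where 43 of 53 TNFAIP8-/- UMIs were in 1 cell. In goblet-like cells, which held most UMIs of both genes, Retnlb stood at 1145 and 50.4 CPM, a log2 ratio of -4.50 (-4.65 to -4.36), beside -2.41 for Mptx1. Lyz2 was nearest to Grasp (0.91), Fn1 (0.87) and Snn (0.86), a likeness that rests on few UMIs.

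Lyz2 outside Paneth-like cells was mostly in 2 cells. A WT cell of the tuft-like cluster had 24 of the 38 Lyz2 UMIs found outside WT Paneth-like cells, with 5 UMIs of myeloid markers, 3 of them of Itgax, beside 84 UMIs of Cd74, 6 of the tuft marker Dclk1 and 29 of the epithelial marker Epcam among 23584 UMIs in all. A TNFAIP8-/- cell of the lymphocyte-like cluster had 18 of 20, with 4 UMIs of myeloid markers, 2 of them of Tyrobp, and none of Cd3e or Cd79a among 4103 UMIs. They were picked for their Lyz2 counts of at least 10 UMIs, so their levels are a description. In the lymphocyte-like cluster of 16 TNFAIP8-/- cells, the Lyz2 level of 211 CPM rested on that cell alone, and the 91 WT cells of the cluster had 1 UMI of Lyz2.

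Under clusters from 2000 variable genes, enteroendocrine-like cells formed a class of 40 WT and 27 TNFAIP8-/- cells. Lyz1 stood there at 289 and 502 CPM, a log2 ratio of 0.79 (0.48 to 1.11), Mmp7 at 129 and 155 CPM, and Mptx2 at 82.3 and 44.4 CPM. After thinning, 10 WT and 9 TNFAIP8-/- cells had a Lyz1 UMI, and 4 and 3 cells had at least 2. An Mmp7 UMI was found in 6 and 3 cells, so these levels rested on few cells. Lyz1 and Mptx2 per alpha-defensin UMI were 0.78 and 0.71 times the value of Paneth-like cells in WT, and 1.43 and 0.80 times in TNFAIP8-/- cells. For Mmp7 they were 4.19 (3.20 to 5.38) and 9.59 (7.47 to 12.1) times.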
